A study of Rattus norvegicus with 6 samples.

Results

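The 4 mature miRNAs of the miR-191a and miR-425 hairpins, namely rno-miR-191a-5p, rno-miR-191a-3p, rno-miR-425-5p and rno-miR-425-3p, were followed in rat brain small RNA libraries. They were taken by name from the deposited counts, 4 of 775 listed miRNAs, and all 4 passed the minimum of 10 counts in total. The rats had both common carotid arteries ligated (2VO), a model of lasting low blood flow to the brain, and both groups received 0.5% CMC-Na at 5 mL/kg by gastric tube every day for 4 weeks. In the tilianin-treated 2VO group (n = 3 libraries) this vehicle carried 40 mg/kg tilianin, a flavonoid glycoside, and in the 2VO group (n = 3 libraries) it carried no drug. The study's methods give male Sprague-Dawley rats, 7 weeks old at purchase. The tissue label is brain, one legend of the study gives cortical tissue, and sham rats were not analysed here. The sources used here do not say whether a library is 1 rat, so the p-values measure the spread between these libraries, which may be technical.

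A miRNA hairpin is cut into a duplex, 1 strand of which is kept in an Argonaute protein (the guide), while the other (the passenger) is mostly degraded. The guide finds messenger RNAs by its seed, bases 2 to 8, and lowers their translation and stability. Mir191 and Mir425 lie close together within the host gene Dalrd3 and are known to be processed from a shared transcript, so a change in transcription alone would move both. miR-191-5p is abundant in many tissues and is often chosen as a reference for qRT-PCR of miRNAs. The design thus allows 3 questions, namely whether the 4 miRNAs differed between the treated and untreated 2VO groups, whether the hairpins kept a fixed ratio, and how steady they were beside other reference miRNAs.

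The mature sequences are shown because the counts depend on telling these miRNAs from each other and from near copies. They were read from RefSeq on rat build GRCr8, 5′ to 3′, and the capitals mark the seed.

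rno-miR-191a-5p: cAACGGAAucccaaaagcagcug

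rno-miR-191a-3p: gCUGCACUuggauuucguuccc

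rno-miR-425-5p: aAUGACACgaucacucccguuga

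rno-miR-425-3p: aUCGGGAAuaucguguccgcc

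rno-miR-191b: gAACGAAAuccaagugcagcu

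In GRCr8, miR-191a-5p lies at chr8:118142641-118142663 and miR-191a-3p at chr8:118142683-118142704, both on the plus strand. miR-425-5p lies at chr8:118143094-118143116 and miR-425-3p at chr8:118143135-118143155 on the same strand, with 366 bases between the hairpins. All of these positions are within the Dalrd3 gene, and whether they are intronic or exonic was not analysed here. The build used by the authors is not given in the sources used here, and no position was used to obtain a value.

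The 4 members had 4 different seeds. Among the 693 mature rat names searched, the seed was shared only for miR-191a-3p, with rno-miR-17-2-3p, which had 0 counts in every library. No other mature miRNA was within 3 single-base edits of a member, the nearest being 6 edits away, and no row of the count table repeated a member's values, so their reads could be assigned to them without a close copy. rno-miR-191b, of the gene Mir3555, is encoded on the opposite strand at chr8:118142682-118142702 and overlaps miR-191a-3p by 20 bases, all of them complementary. It had 0 counts in all 6 libraries, which allows up to 0.227 to 0.418 CPM (counts scaled to the library total) for 3 counts depending on the library, and this limit covers counting error only.

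Total counts were 7428890 to 13198776 in the 2VO group and 7175872 to 9464216 in the treated group. One library stood apart, tilianin-treated replicate 2, whose Spearman correlations over the tested miRNAs were 0.936 to 0.957 with the rest, against 0.983 to 0.992 among the other 5. From here on, CPM is given after TMM scaling of the library sizes. Neuronal markers (miR-124-3p, miR-9a-5p and miR-128-3p) were abundant in every library, as the brain label has it, with a summed level of 126370 to 159150 CPM in 2VO libraries and 83358 to 157210 CPM in treated ones. The lowest of these sums was that of treated replicate 2. The miRNAs of the Hox-cluster list mark posterior tissues rather than forebrain. This list summed to 89.8 to 149 CPM in the 2VO group and to 321, 21658 and 489 CPM in treated replicates 1, 2 and 3. Of its 3 members, 2 passed the study's criterion upwards (unadjusted p below 0.05 with a log2 fold change above 1 or below -1). Over all 454 tested miRNAs, 26 passed it (5.73%), 21 of them upwards, and 0 had an adjusted p below 0.05 by edgeR's quasi-likelihood test. The choroid plexus list (2 of 2 members past the criterion upwards) summed to 119 to 148 CPM against 121 to 1073 CPM, with treated replicate 3 at 121 CPM. The erythroid list (1 of 2 tested members past the criterion upwards) summed to 155 to 198 CPM against 338 to 881 CPM. Its defining miR-451-5p, with no more than 4 counts in any library, was not tested. The sum was almost wholly miR-486, as miR-144-3p had only 0.232 to 3.54 CPM, so it says little about these cells. The leukocyte and microglial list (1 of 4 past the criterion upwards) summed to 773 to 1156 CPM against 993 to 1393 CPM. The oligodendrocyte list summed to 18.2 to 35.3 CPM against 17.5 to 50.4 CPM. Its defining miR-219a-5p had no more than 1 count in a library, so the sum was almost wholly miR-338-3p and says little about these cells. The endothelial list summed to 5372 to 8553 CPM against 6510 to 7203 CPM, and 0 members of either list passed the criterion. In brain tissue fewer cells of a type and less RNA per cell cannot be told apart. The part of these markers in the values below was not tested, and the members' values without treated replicate 2 are given beside the main results.

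The levels of the 4 members covered 3 orders of magnitude. miR-191a-5p was the 7th most abundant miRNA by mean CPM and held 3.82% to 4.93% of all counts of a library. miR-425-5p was 130th, miR-191a-3p 201st and miR-425-3p 202nd. All are 21 to 23 bases long, so no correction for length was made.

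miR-191a-5p, the guide strand of its hairpin, had 40547, 45214 and 41637 CPM in 2VO replicates 1, 2 and 3, on 321831 to 585837 counts. It had 50648, 42175 and 38316 CPM in tilianin-treated replicates 1, 2 and 3, on 273857 to 466371 counts. The highest and the lowest of the 6 libraries were both treated ones, so the 2VO values lay inside the treated range. The 2VO libraries averaged 42466 ± 2442 CPM and the treated libraries 43713 ± 6308 CPM (SD, n = 3 each). The log2 fold change was 0.04 (standard error 0.162, approximate 95% interval -0.34 to 0.42, unadjusted p = 0.804, Benjamini-Hochberg adjusted p = 0.941 by edgeR's quasi-likelihood test). It was -0.05 without treated replicate 1, 0.08 without treated replicate 2 and -0.03 by library totals, so the data give no direction for it.

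miR-425-5p, the guide strand of the other hairpin, had 195.28, 207.15 and 195.23 CPM in 2VO replicates 1, 2 and 3. The treated replicates had 193.09, 163.09 and 204.46 CPM, on 1059 to 1778 counts. Treated replicate 2 was below every other library, and the other 5 libraries lay between 193.09 and 207.15 CPM. The means were 199 ± 6.87 CPM and 187 ± 21.4 CPM (SD, n = 3 each). The log2 fold change was -0.09 (standard error 0.181, interval -0.52 to 0.33, unadjusted p = 0.626, adjusted p = 0.896 by edgeR), and it was 0.01 without treated replicate 2.

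miR-191a-3p, the passenger strand of miR-191a, had 47.7, 50.3 and 42.6 CPM in the 2VO replicates and 51.6, 32.6 and 38.9 CPM in the treated replicates, on 212 to 652 counts. Treated replicate 1 was the highest library and treated replicates 2 and 3 the lowest, so the groups overlapped. Its log2 fold change was -0.19 (standard error 0.221, interval -0.71 to 0.33, unadjusted p = 0.417, adjusted p = 0.861 by edgeR). Of the members it had the widest interval, and its value was -0.04 without treated replicate 2 and -0.37 (unadjusted p = 0.133 by edgeR) without treated replicate 1.

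miR-425-3p, the other arm of miR-425, had 46.4, 42.8 and 37.4 CPM in the 2VO replicates and 44.3, 44.0 and 44.2 CPM in the treated replicates, on 286 to 555 counts. The treated values lay within the range of the 2VO values. The log2 fold change was 0.07 (standard error 0.172, interval -0.34 to 0.47, unadjusted p = 0.716, adjusted p = 0.922 by edgeR). It was -0.02 with 2VO replicate 3 left out and 0.08 with treated replicate 2 left out. Between miR-191a-3p and miR-425-3p, neighbours in the order of levels, the ratio of reads went from 0.741 to 1.17 over the libraries, and their order differed between libraries.

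**Figure D1:**
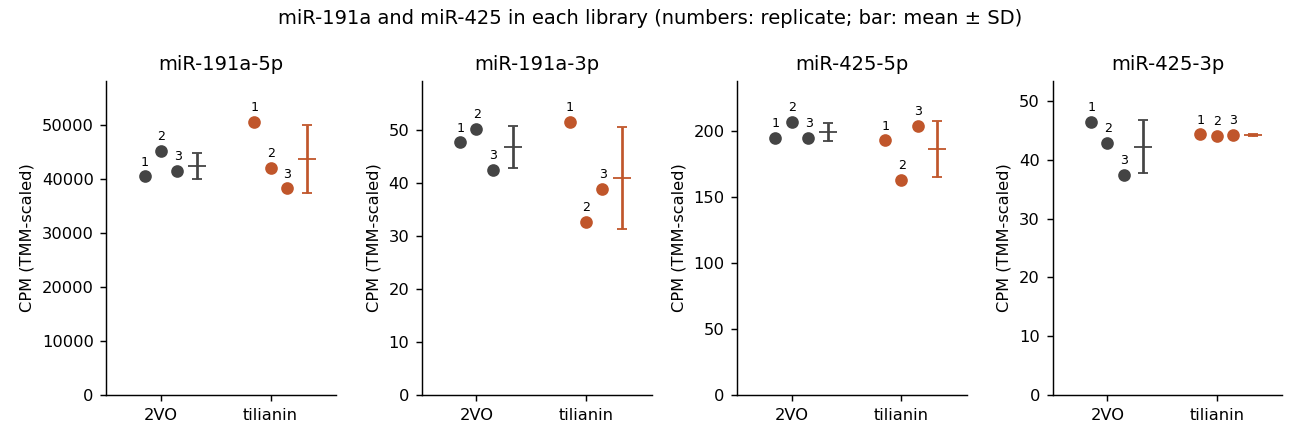
Each panel plots the TMM-scaled CPM (vertical axis, from 0) of 1 mature miRNA in the 3 2VO libraries (grey) and the 3 tilianin-treated libraries (orange), numbered by replicate, with the mean ± SD beside each group. The groups overlap in every panel, and for miR-425-5p treated replicate 2, at 163.09 CPM, is below the other 5 libraries.

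None of the 4 members passed the study's criterion (unadjusted p below 0.05 with a log2 fold change above 1 or below -1), which 26 of the 454 tested miRNAs did (5.73%). None had an unadjusted p below 0.05 by edgeR either (the smallest over all alternatives was 0.133), and their p-values ranked 386th (miR-191a-5p), 219th (miR-191a-3p), 314th (miR-425-5p) and 352nd (miR-425-3p) of 454. The groups overlapped for all 4, while they were separate for 9.69% of the tested miRNAs. With so few members, counts of 0 lie near both of these shares. Over all tested miRNAs the median log2 fold change was -0.03, and by edgeR's quasi-likelihood test 33 had an unadjusted and 0 an adjusted p below 0.05 (adjusted, 3 by DESeq2's Wald test, 3 by edgeR's exact test and 0 by limma-voom, no member among them). The approximate 95% intervals of all 4 members lay between -1 and 1, so for each a doubling or a halving was outside its interval, whereas smaller changes were not. In linear terms the interval for miR-191a-5p went from 0.790-fold to 1.34-fold and that for miR-425-5p from 0.698-fold to 1.26-fold. The summed level of the 4 members averaged 42754 ± 2450 CPM without and 43985 ± 6315 CPM with tilianin (SD, n = 3 each, two-sided exact permutation p = 0.8, where 0.1 is the smallest p that 3 libraries against 3 allow). The difference in log2 summed CPM was 0.03, and it was 0.05 without treated replicate 2 and -0.08 without treated replicate 1.

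**Figure D2:**
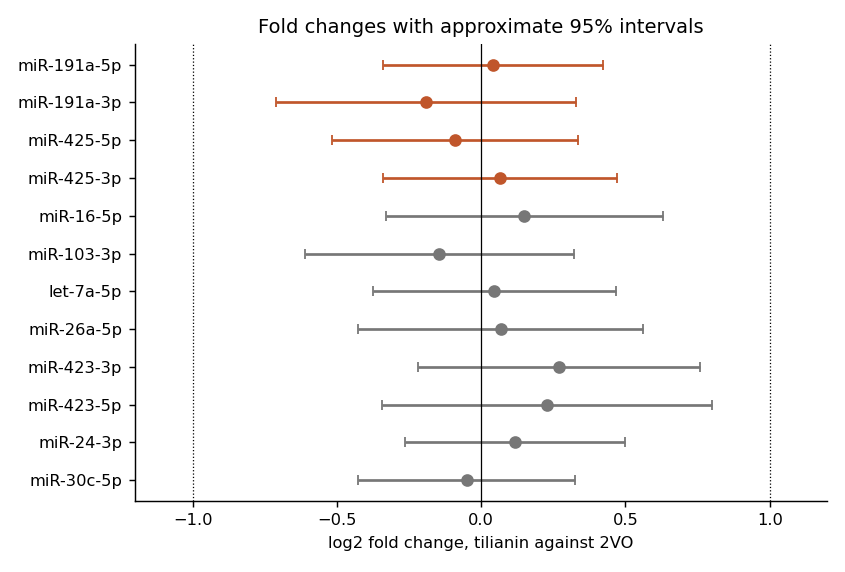
The points are log2 fold changes of the tilianin-treated against the 2VO group (horizontal axis) for the 4 members (orange) and for the 8 tested miRNAs of a list of common qRT-PCR references (grey), and the bars are approximate 95% intervals from edgeR. Every interval crosses 0, and all lie between the dotted lines at -1 and 1 that mark the study's fold criterion.

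The ratio of the hairpins needs no scaling of the libraries, as both counts come from the same library. In the 2VO group, 208, 218 and 213 reads of miR-191a-5p were counted per read of miR-425-5p in replicates 1, 2 and 3, with 95% Wilson intervals of 198 to 217, 210 to 227 and 203 to 224. In the treated group the ratio was 262, 259 and 187, with intervals of 250 to 275, 243 to 275 and 179 to 197. Treated replicates 1 and 2 were above all 2VO libraries and treated replicate 3 was below all of them, and no treated interval met a 2VO interval. These intervals cover counting error only, as no molecular identifiers are mentioned. The ratio thus varied 1.05-fold from lowest to highest in the 2VO group and 1.40-fold in the treated group.

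With both arms of each hairpin summed, the ratio of miR-191a to miR-425 reads was 168, 181 and 179 in the 2VO replicates and 214, 204 and 154 in the treated replicates. The pattern was that of the 5p arms, with treated libraries on both sides of the 2VO group. The group means were 176 ± 7.09 and 190.5 ± 31.8 (SD, n = 3 each), and the log2 ratio was higher by 0.10 in the treated group (two-sided exact permutation p = 0.5). This difference moved with single libraries, being 0.067 without 2VO replicate 1, 0.011 without treated replicate 1, 0.045 without treated replicate 2 and 0.25 without treated replicate 3 (exact permutation p = 0.1, the smallest that 3 libraries against 2 allow). For the 5p arms alone this difference was 0.13 (exact permutation p = 0.4), and for the 3p arms it was -0.28 (exact permutation p = 0.3). The SD of the log2 ratio of both arms was 0.0588 in the 2VO group and 0.254 in the treated group, and the difference between these SDs was not tested. Treated replicate 2 was not the library that set the spread, since treated replicates 1 and 3 held the highest and the lowest ratio. The ratio is one of reads, and how well each miRNA is captured in a library is not known, so it is not the ratio of molecules in the cell.

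miR-191a was almost wholly a 5p hairpin. The 5p arm gave 99.8824%, 99.8888% and 99.8979% of its reads in the 2VO replicates and 99.8983%, 99.9226% and 99.8985% in the treated replicates. This is 849 to 978 reads of the 5p arm for each 3p read in the 2VO group and 982 to 1292 in the treated group. All treated shares were above all 2VO shares, but by a margin smaller than the Wilson intervals, which for 2VO replicate 3 went from 99.8862% to 99.9083% and for treated replicate 1 from 99.8887% to 99.9070%. The difference was 0.0168 percentage points (two-sided exact permutation p = 0.1, the smallest possible here), and 0.00866 points without treated replicate 2, which had the highest share.

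miR-425 kept more of its 3p arm. Its 5p share was 80.8%, 82.9% and 83.9% in the 2VO replicates and 81.3%, 78.7% and 82.2% in the treated replicates. The means were 82.5 ± 1.59% and 80.8 ± 1.81% (SD, n = 3 each), a difference of -1.76 percentage points (exact permutation p = 0.3), or -0.746 points without treated replicate 2. The groups overlapped. Of 179 hairpins with at least 100 reads over both arms, the median share of the dominant arm over all libraries was 98.0%, and 36 were more one-sided than miR-191a (99.9%), whereas 142 were more one-sided than miR-425 (81.9%). Neighbouring hairpins of 1 host gene thus lay on opposite sides of the median in how strictly 1 arm was kept. In the sequences above, both arms of miR-425 begin with A, while miR-191a-5p begins with C and miR-191a-3p with G. Whether the first base has a part in the arm shares was not tested.

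**Figure D3:**
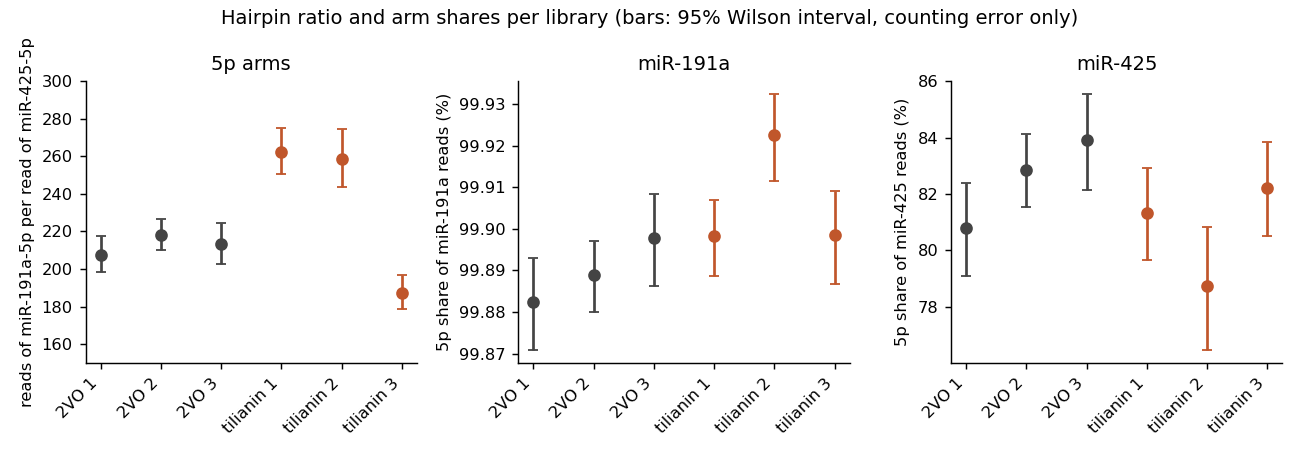
The panels plot, for each library (2VO grey, tilianin-treated orange), the reads of miR-191a-5p per read of miR-425-5p, the 5p share of miR-191a reads and the 5p share of miR-425 reads (%), with 95% Wilson intervals as bars. The vertical axes do not start at 0, and the middle one spans less than 0.1 percentage points. The ratio lies at 208 to 218 in the 2VO group and at 187 to 262 in the treated group.

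Although both hairpins are known to share a transcript, the guide strands did not rise and fall together over the 6 libraries. The Pearson correlation of log2 CPM between miR-191a-5p and miR-425-5p was -0.02 (exact permutation p = 0.956) and Spearman's rho -0.31 (exact permutation p = 0.564). Without treated replicates 1 and 3, the libraries farthest from the median of miR-191a-5p, r was 0.32, without treated replicate 2 it was -0.32, with the group means removed it was 0.04, and by library totals it was 0.39. Of the 6 pairs of members, the highest r was 0.70, between miR-191a-3p and miR-425-5p (exact permutation p = 0.115, rho 0.26 with p = 0.658), and it was -0.24 without treated replicate 2. The arms of miR-191a had an r of 0.57 (exact permutation p = 0.243, rho 0.60 with p = 0.242), which was 0.83 without treated replicate 2, 0.35 without treated replicate 1 and 0.26 without treated replicates 1 and 3. Those of miR-425 had an r of -0.11 (exact permutation p = 0.724, rho -0.09 with p = 0.919). The Benjamini-Hochberg adjusted p over the 6 pairs was at least 0.692 for r and 0.919 for rho. With 6 libraries, a p that misses the threshold does not show that the levels are unrelated.

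Other co-transcribed pairs were set beside the hairpins. Of 8 pairs listed, 5 had at least 100 counts of both members in every library. The SD of the log2 ratio over the 6 libraries was 0.189 for miR-191a-5p and miR-425-5p. It was lower for 3 pairs, namely miR-379-5p and miR-411-5p (0.0779), miR-132-3p and miR-212-3p (0.125), and miR-23b-3p and miR-27b-3p (0.128). It was higher for miR-221-3p and miR-222-3p (0.261) and for miR-99b-5p and miR-125a-5p (0.599). Within the 2VO group the SD was 0.0361 for miR-191a-5p and miR-425-5p, below those of the other pairs (0.0438 to 0.139). Within the treated group it was 0.274, inside the range of the other pairs (0.0544 to 0.883). The correlation of log2 CPM within a pair was higher than for miR-191a-5p and miR-425-5p in 4 of the 5, from 0.64 to 0.99, and was -0.56 for miR-99b-5p and miR-125a-5p. The pairs differ in how far their levels ranged over the libraries, on which r depends, so the SDs of the ratio were given first. The pairs miR-25-3p and miR-93-5p, miR-143-3p and miR-145-5p, and miR-181c-5p and miR-181d-5p had too few counts.

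The miRNAs most like each guide strand were found among 161 others with a mean of at least 100 CPM, by Pearson's r of log2 CPM over the 6 libraries, as a description. For miR-191a-5p, the partner miR-425-5p ranked 89th, and for miR-425-5p, miR-191a-5p ranked 90th. The miRNA most like miR-191a-5p was miR-26a-5p (r = 0.96, and 0.87 without treated replicate 1), which had 90596, 96007 and 91485 CPM in the 2VO replicates and 126470, 90507 and 74427 CPM in the treated replicates. Both were highest in treated replicate 1 and lowest in treated replicate 3. miR-26a-5p was followed by let-7d-5p (0.88), miR-340-3p (0.82), miR-455-3p (0.79) and miR-652-3p (0.77). Without treated replicate 1 these values were 0.60, 0.98, 0.30 and -0.04 in turn, so miR-340-3p then lay above miR-26a-5p.

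The 5 miRNAs most like miR-425-5p were all low in treated replicate 2. They were miR-221-5p, miR-221-3p, miR-409a-3p, miR-153-3p and miR-137-3p, with r from 0.95 to 0.96, and without treated replicate 2 their r was 0.40 to 0.65. The size of the fall was not alike. miR-221-3p had 256 CPM in treated replicate 2 against 2423 to 3383 CPM in the other libraries, and miR-153-3p, a neuron-enriched miRNA, had 674 against 2022 to 2367 CPM, whereas miR-425-5p had 163.09 against 193.09 to 207.15 CPM. miR-128-3p, also neuron-enriched, had 3885 CPM there against 17574 to 28697 CPM. The falls of the other neuronal markers were smaller. miR-124-3p had 55804 CPM there against 74146 to 98573 CPM, and miR-9a-5p had 23669 against 25970 to 34982 CPM. The library in which miR-425-5p was lowest was thus the one with the lowest neuronal sum and the highest Hox-cluster sum given above, and the part of these in its level was not tested.

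**Figure D4:**
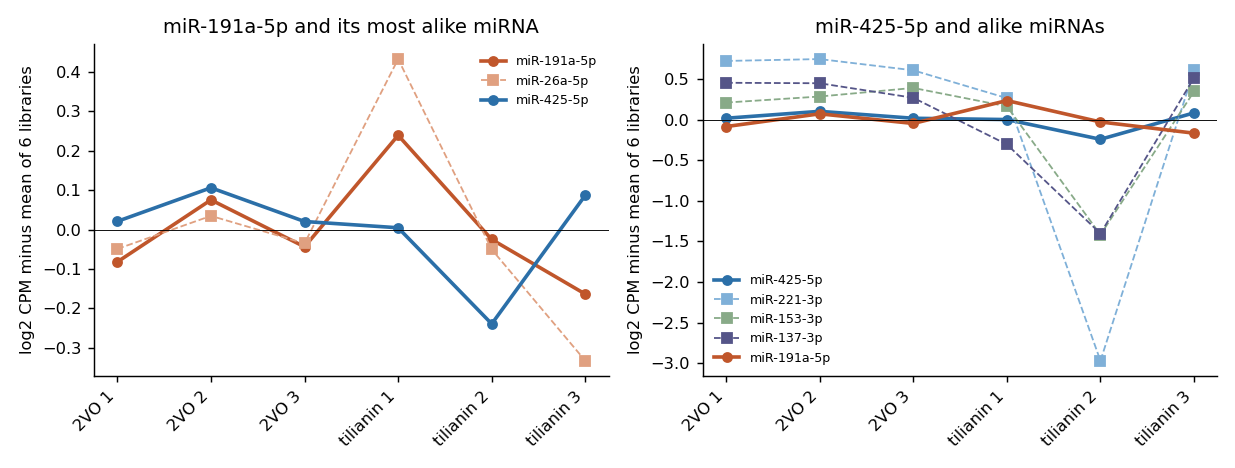
The plots show log2 CPM minus the mean of the 6 libraries (vertical axis) for each library, on the left for miR-191a-5p, miR-26a-5p and miR-425-5p and on the right for miR-425-5p, miR-191a-5p and 3 of the miRNAs most like miR-425-5p. The lines only join the points of 1 miRNA, as libraries have no order, and the vertical scales differ between the plots. miR-26a-5p follows miR-191a-5p with larger swings, and in treated replicate 2 the fall of miR-425-5p (-0.24) is small beside that of miR-221-3p (-2.97).

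Since miR-191-5p serves as a qRT-PCR reference, the spread over all 6 libraries was compared with that of other miRNAs, as a description with no test. The SD of log2 CPM was 0.141 for miR-191a-5p and 0.124 for miR-425-5p, the 17th and the 9th lowest of 162 miRNAs with a mean of at least 100 CPM, whose median was 0.300. The less abundant arms, below this minimum, had an SD of 0.253 (miR-191a-3p) and 0.107 (miR-425-3p). Of the list of 10 miRNAs often used as references, 6 could be compared, with SDs from 0.103 to 0.247. miR-30c-5p (0.103) and let-7a-5p (0.126) were steadier than miR-191a-5p, and miR-24-3p (0.145), miR-103-3p (0.190), miR-16-5p (0.201) and miR-26a-5p (0.247) were less so. Of these, miR-30c-5p alone was steadier than miR-425-5p. These ranks and this order are those of all 6 libraries together, treated replicate 2 included. With a library left out, the ranks and the SDs of the reference list are not given here, so the order may depend on single libraries.

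The place of the guide strands depended on the scaling. miR-191a-5p was 17th by TMM, 23rd by DESeq2's size factors, 24th by the upper quartile and 8th by library totals, whereas miR-425-5p was 9th, 8th, 16th and 39th. Single libraries set part of the spread. Without treated replicate 1 the SD of miR-191a-5p was 0.0870. Without treated replicate 2 the SD was 0.157 for miR-191a-5p and 0.0455 for miR-425-5p. None of the reference list passed the criterion, upwards or downwards, and none of its tested members had an unadjusted p below 0.05 (5.73% of all tested miRNAs passed the criterion). The other 4 had too few reads, with a mean of 83.0 CPM for miR-423-5p, 41.1 CPM for miR-423-3p, 0.0216 CPM for miR-93-5p and 0 counts for miR-25-3p. Whether such low counts reflect levels in the tissue or the way reads were counted was not tested.

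**Figure D5:**
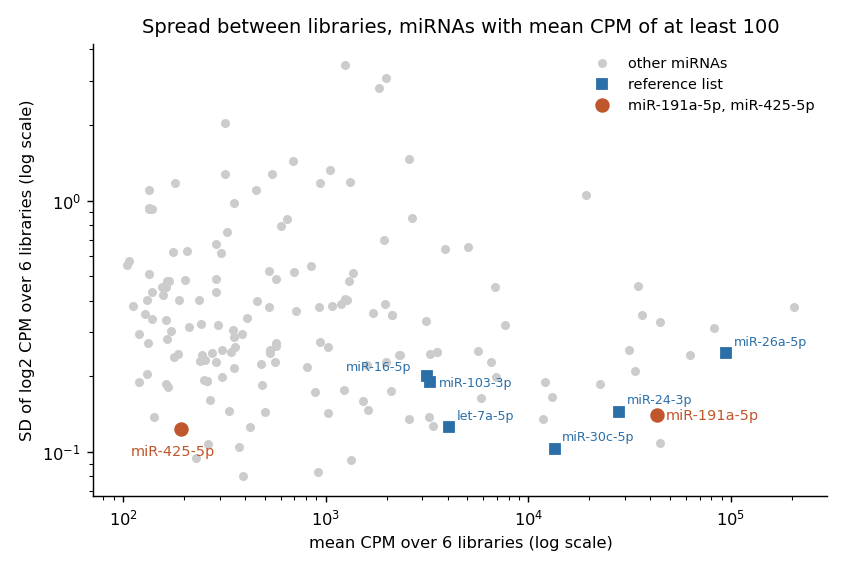
Each point is a miRNA with a mean of at least 100 CPM, placed by its mean CPM over the 6 libraries (horizontal log axis) and the SD of its log2 CPM over them (vertical log axis). miR-191a-5p (SD 0.141) and miR-425-5p (SD 0.124), in orange, lie near the lower edge, among the miRNAs of the reference list (blue squares, 0.103 to 0.247).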

How the data were processed

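Small RNA from rat brains was sequenced from TruSeq Small RNA libraries, and the authors deposited raw counts of reads per mature miRNA and library, not normalized. Per the submitters' processing notes, FastQC 0.11.2, Trimmomatic 0.36, cutadapt 1.14 and DESeq2 1.12.4 were used, while the aligner, miRNA reference, build and counting program are not given in the sources used here. Groups were taken from the sample titles and columns matched by library code. The 454 miRNAs that reached a total of 10 counts were scaled by TMM and tested by quasi-likelihood in edgeR 4.0.16 under R 4.3.3, with Benjamini-Hochberg adjustment over all of them (alternatives used DESeq2 1.42.0 and limma 3.58.1). Standard errors and intervals are approximate, being computed from each fold change with its F statistic. For hairpin ratios, arm shares and sums, exact permutation tests (two-sided) ran over all 20 splits, and for correlations over all 720 orders (scipy 1.17.1). The code was tested on simulated data. Total counts of 7175872 to 13198776 set the counting error of each value. The named miRNAs are the 4 members, a reference list, co-transcribed pairs, marker lists, seed sharers and the 5 most alike miRNAs of each guide strand. miR-1912, which the naming rule's prefix also takes, is another gene and is not described. The members and lists were chosen with earlier results of these data known. Alternatives were other scalings, tests and filters, a replicate block, and leaving out each library in turn. Sequences came from RefSeq tables of GRCr8, where all 4 members matched.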

Additional observations from a re-analysis of the deposited data

How the results depend on the processing

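Of 64 alternative fits for the members' log2 fold changes, 60 kept the direction and side of the threshold and 4 changed sign (range -0.37 to 0.14), with 0.133 the smallest unadjusted p. Those of miR-191a-3p stayed negative in all 16. By library totals the log2 fold change of miR-191a-5p was -0.025, the difference in summed CPM -0.035, the r between miR-191a-5p and miR-425-5p 0.39 and the SD of miR-425-5p 0.199. That r was 0.18 by the upper quartile and 0.041 with group means removed. With each library left out, the log2 fold change went from -0.054 to 0.13 for miR-191a-5p, from -0.37 to -0.036 for miR-191a-3p, from -0.17 to 0.012 for miR-425-5p and from -0.021 to 0.14 for miR-425-3p, the difference in summed CPM from -0.078 to 0.12, the r from -0.32 to 0.23, and the SD from 0.0870 to 0.157 for miR-191a-5p and from 0.0455 to 0.139 for miR-425-5p. The differences in log2 hairpin ratio (0.011 to 0.25) and in 5p share of miR-191a (0.0087 to 0.021 points) and of miR-425 (-2.63 to -0.746 points) kept their sign, but not their size.

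Over all miRNAs, 21 passed the criterion upwards and 5 downwards. Upwards, 6 passed by limma-voom, and 7 to 29 with each library left out (8, 7 and 9 without 2VO replicates 1, 2 and 3, and 9 without treated replicate 2). Downwards, 8 passed by library totals, 3 by DESeq2's Wald test, 3 by limma-voom, 2 with filterByExpr, and 2 to 5 with each library left out (2 without 2VO replicate 2). The causes were not tested. With the replicate number as a block, 9 passed upwards, and the members' log2 fold changes were 0.03 (miR-191a-5p), -0.21 (miR-191a-3p), -0.10 (miR-425-5p) and 0.07 (miR-425-3p). The numbers were not taken to pair libraries, since they are not said to pair animals. They are those of the sample titles, and the library code of 2VO replicate 3 carries a different number. Correlations of same-numbered libraries' deviations from their group means were -0.12, 0.0092 and 0.30, and 2 of 6 libraries correlated best with their own number. With 3 libraries a group these values cannot settle whether the numbers pair libraries.

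Counts of 212 to 652 limit miR-191a-3p and of 286 to 555 limit miR-425-3p, and 3 libraries a group limit every test.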
